A study of Caenorhabditis elegans with 10 samples.

Results

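The ubiquitin system was represented by 24 of the 2732 genes listed as enriched with DLC-1. DLC-1 is a dynein light chain of the LC8 family, a small hub protein that binds the dynein motor and other partners. The 24 genes were found by name: those starting with *cul*, *ubc*, *usp*, *ubr*, *otub* or *uba*, and 32 ligase subunits, adaptors and deubiquitinases named singly. The reference annotation holds 77 protein-coding genes under these names, and 1 further name, *mat-2*, has no entry there and is not in the table. Of the 78 names, 54 were therefore not listed.

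The samples were 5 FLAG immunoprecipitates and 5 inputs, all from whole extracts of synchronized young adult *Caenorhabditis elegans* that carry 3xFLAG::DLC-1. The immunoprecipitates were made with an antibody against FLAG, and the inputs are the extracts without one. The tag is in all 10 samples, and no untagged immunoprecipitate was analysed here. Per the labels, input libraries were started from total RNA with oligo-dT primers and immunoprecipitated RNA was not enriched, so library preparation and pull-down cannot be told apart. The labels do not say whether the numbered replicates are separate cultures, so the spread behind the p-values may be technical.

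The data are the authors' deposited table of genes higher in the immunoprecipitates, which gives for each gene the mean of its normalized counts over libraries, the log2 fold of FLAG immunoprecipitate over input (called log2 fold) and a standard error (SE). It holds no values per library, so depth is unknown and no value per sample can be shown. Every row has a fold above 2 and an adjusted p under the authors' limit of 0.01. Genes outside the table may have been above 2-fold with too wide an error, enriched by less than 2-fold, equal, depleted or silent. Extracts hold all tissues: of 4 marker genes each, 4 were listed for germline, 4 for body wall muscle, 3 for intestine, 3 for neurons and 1 for sperm, where a listed marker is an enriched one and an unlisted marker need not be absent. In which tissue a member's RNA came down was not measured, and fewer cells of a type and less RNA per cell cannot be told apart in such extracts.

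Ubiquitin is a small protein that is joined to other proteins as a signal, often for destruction by the proteasome. An activating enzyme (E1) passes it to a conjugating enzyme (E2), and a ligase (E3) picks the protein to be marked. HECT ligases carry ubiquitin themselves before handing it on, while RING and U-box ligases bring the E2 and the substrate together. Cullin-RING ligases are built from a cullin scaffold and exchangeable adaptors, and the anaphase-promoting complex is a large relative of these that drives cells through mitosis and meiosis. Deubiquitinases remove the mark. In worms such ligases are known for their work in the oocyte-to-embryo transition, in germline fate and at synapses.

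HECT, RING, U-box and UBR ligases made up 6 of the 9 genes at or above 4-fold. The E2 family had 1 listed gene of 21. These genes and classes were chosen with results of these data known, so the counts are descriptions. The 24 genes had a median log2 fold of 1.73 in the authors' deposited table, or 3.31-fold, with a range from 1.13 to 3.49. This was close to the median of 1.74 over the 1602 protein-coding rows whose mean in the authors' deposited table was 100 normalized counts or more. That group is the nearest set available, because none of the 24 genes had a mean under 100. It is not matched in counts, since the median of these means was 1205 for the 24 and 610.2 for the 1602 rows. At or above 4-fold in the authors' deposited table were 9 of the 24, or 37.5%, against a background of 38.3% of those 1602 rows. The median and the share of the ubiquitin genes were thus both near those of other coding genes of the table.

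A stricter question is which genes exceeded 2-fold by more than their error. Of the 24 genes, 17 passed a one-sided Wald test against 2-fold, with Benjamini-Hochberg adjustment over all 2732 rows at 0.01, where the background was 63.8% of all rows and 62.0% of coding rows with a mean of at least 100. All rows were already selected for a fold above 2, which makes an adjustment over the rows alone lenient. Adjusted over the 20328 genes that the authors tested, 15 of the 24 passed, against a background of 49.4% of all rows and 53.5% of the coding rows with a mean of at least 100. The shares of 17 and 15 in 24 are 70.8% and 62.5%, somewhat above these backgrounds, a difference of few genes that was not tested. The median SE was 0.160 for the 24, against 0.218 for the coding rows with a mean of at least 100. At a like fold a gene with a smaller SE passes more readily, and the part of SE in these shares was not tested. Nearest to the 2-fold limit of the authors' deposited table were *cul-1* at 1.13, *herc-1* at 1.31 and *otub-2* at 1.36 (log2 scale), and values just below the limit are not in it. The genes that passed only the first adjustment were *zer-1* and *ddb-1*. Against 4-fold 6 genes passed, *ubc-15*, *ubr-5*, *rpm-1*, *eel-1*, *hecd-1* and *ubr-1*, or 25.0%, where the background was 21.6% of all rows. That background is less like the 24, because it holds noncoding genes and genes with few counts. Its median mean was 222.1 normalized counts against 1205 for the 24, and its median SE 0.311 against 0.160.

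**Figure D1:**
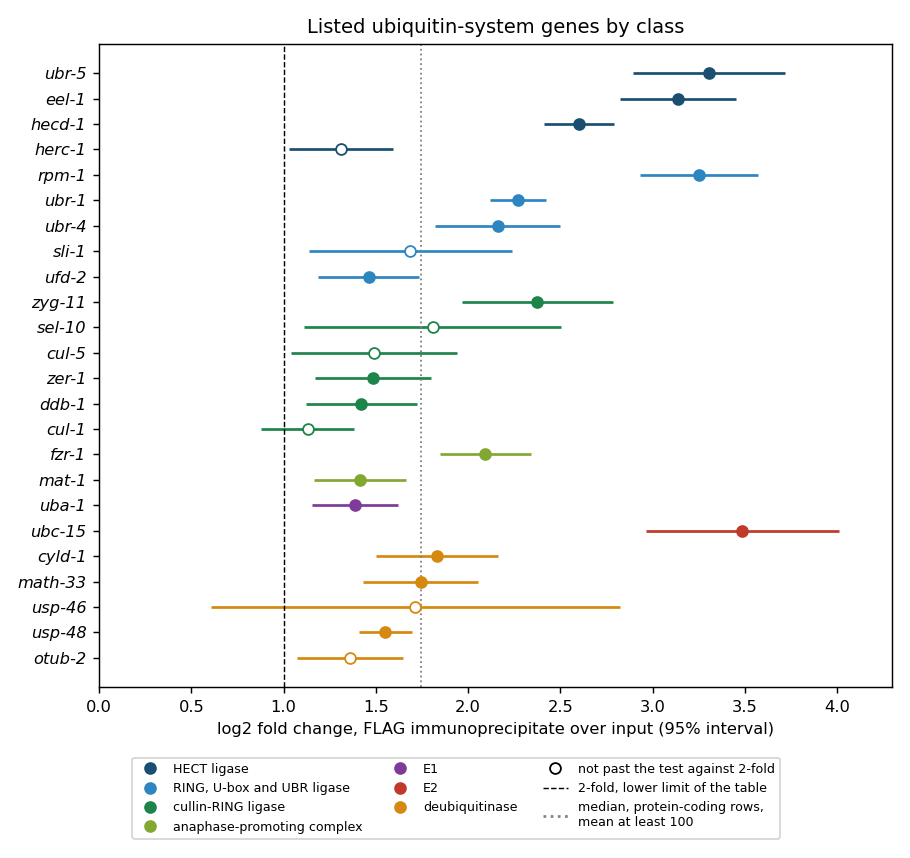
Log2 fold change of FLAG immunoprecipitate over input for the 24 listed genes, grouped by class. Points are the authors' values, bars are 95% intervals from their SE, open points did not pass the test against 2-fold, the dashed line is the 2-fold limit of the table and the dotted line the median of 1.74 over coding rows with a mean of at least 100. The HECT gene *herc-1* at 1.31 stands apart from the other HECT genes, which lie between 2.60 and 3.31.

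HECT ligases had the highest class median among classes with 3 or more listed genes, at 2.87 over 4 genes in the authors' deposited table (log2 scale). *ubr-5* stood at 3.31 ± 0.21 in the authors' deposited table (log2 scale ± SE), or 9.89-fold, with a mean of 5048 normalized counts. It lies on chromosome I from 8828048 to 8838719 of WBcel235. *eel-1*, the homologue of mammalian HUWE1, followed at 3.14 ± 0.16, or 8.79-fold, and its mean of 11149 normalized counts is the highest of the 24 in the authors' deposited table. The means are not corrected for length, so they describe the reads behind each fold and not relative abundance. The *eel-1* gene spans 3032713 to 3050104 of chromosome IV (WBcel235). *hecd-1* stood at 2.60 ± 0.098 in the authors' deposited table (log2 scale ± SE), with a mean of 5471 normalized counts. All 3 passed the test against 2-fold under both adjustments, with Benjamini-Hochberg adjusted p from 5.90e-27 for *ubr-5* to 7.08e-59 for *hecd-1* in the one-sided Wald test over all rows.

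The remaining listed HECT gene stood far lower. *herc-1*, a very large ligase with repeats related to the RCC1 exchange factor, stood at 1.31 ± 0.14 in the authors' deposited table (log2 scale ± SE), with a mean of 460.3 normalized counts. It did not pass the one-sided Wald test against 2-fold (Benjamini-Hochberg adjusted p = 0.0224). Its interval of 1.03 to 1.60 lies below that of *hecd-1*, which is 2.41 to 2.79 (95%, from the SE in the authors' deposited table). Differences between genes were not tested, since all values come from the same libraries. The gene spans 43235 bp, and 3 other annotated coding genes, none of them listed, lie wholly inside that span. *wwp-1*, *oxi-1* and *etc-1*, the other HECT genes looked for, were not listed.

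Among RING, U-box and UBR ligases, 5 of 6 genes were in the table, and their median log2 fold was 2.16 in the authors' deposited table. *rpm-1*, a giant RING ligase that shapes synapses and axons, had the highest fold of this class. Its value in the authors' deposited table was 3.25 ± 0.16 (log2 fold ± SE), or 9.52-fold, with a mean of 609.3 normalized counts, and the gene lies on chromosome V from 8805399 to 8819955 (WBcel235). *ubr-1* and *ubr-4*, homologues of ligases that recognise destabilising N-terminal residues, stood at 2.27 ± 0.078 and 2.16 ± 0.17 in the authors' deposited table (log2 scale ± SE). The SE of *ubr-1* is the second smallest of the 24, and its mean was 1788 normalized counts, against 3525 for *ubr-4* in the authors' deposited table. Together with *ubr-5*, all 3 *ubr* genes of the reference were listed and all 3 passed the test against 2-fold. The background was 10.6% of coding genes listed, and 62.0% of coding rows with a mean of at least 100 passing. The *ubr* genes are long, at 9347 bp for *ubr-1*, 10672 bp for *ubr-5* and 23205 bp for *ubr-4*. Of coding genes spanning 5 to 10 kb 30.7% were listed, and of those spanning 10 kb or more 54.1%. The prefix was chosen with results of these data known.

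Both smaller ligases of this group were closer to the limit of the table. *sli-1*, the worm Cbl, which restrains receptor tyrosine kinase signalling, stood at 1.69 ± 0.28 in the authors' deposited table (log2 scale ± SE). It missed the one-sided Wald test against 2-fold by little (Benjamini-Hochberg adjusted p = 0.0111). *ufd-2*, a U-box enzyme that extends ubiquitin chains, was lower at 1.46 ± 0.14 but passed, because its SE in the authors' deposited table is smaller (Benjamini-Hochberg adjusted p = 0.000976, one-sided Wald test). The U-box gene *chn-1* was not listed.

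Cullin-RING components were listed less far above the limit, with a median log2 fold of 1.49 over 6 of 17 genes in the authors' deposited table. Substrate receptors, not scaffolds, had the highest values. *zyg-11*, a receptor of CUL-2 ligases needed for meiosis and embryonic polarity, stood at 2.38 ± 0.21 (log2 fold ± SE) with a mean in the authors' deposited table of 2165 normalized counts. It passed the one-sided Wald test against 2-fold (Benjamini-Hochberg adjusted p = 1.51e-10) and lies on chromosome II from 8017680 to 8020785 (WBcel235). *zer-1*, a relative of *zyg-11*, was lower in the authors' deposited table, at 1.48 ± 0.16 (log2 fold ± SE). *sel-10*, the F-box protein Fbw7 that acts on Notch in the germline and elsewhere, stood at 1.81 ± 0.36 in the authors' deposited table (log2 scale ± SE). With that wide error it did not pass the one-sided Wald test against 2-fold (Benjamini-Hochberg adjusted p = 0.0168), although *fzr-1* and *cyld-1*, just above it in fold, did.

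Neither of the listed scaffolds passed the one-sided Wald test against 2-fold, with Benjamini-Hochberg adjusted p of 0.179 for *cul-1* and 0.0233 for *cul-5*. *cul-1*, the scaffold of SCF ligases, had the lowest fold of all 24 genes, 1.13 ± 0.13 in the authors' deposited table (log2 scale ± SE), and its 95% interval of 0.88 to 1.38 includes 2-fold. *cul-5* stood at 1.49 ± 0.23 and *ddb-1*, the adaptor of CUL-4 ligases, at 1.42 ± 0.15 in the authors' deposited table (log2 scale ± SE). The cullin genes *cul-2*, *cul-3*, *cul-4* and *cul-6* were not listed, and neither were the RING subunit gene *rbx-1* and the neddylation gene *dcn-1*. The adaptor genes *skr-1* and *skr-2*, which are near-identical copies, the F-box gene *lin-23*, the CUL-3 adaptor gene *mel-26* and the CUL-2 receptor gene *zif-1* were not listed either. Receptors and adaptors were thus listed both with and without their scaffold: *sel-10* with *cul-1*, *zyg-11* and *zer-1* without *cul-2*, and *ddb-1* without *cul-4*.

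For the anaphase-promoting complex, 2 of 7 genes were listed. *fzr-1*, the Cdh1-type activator that brings substrates to the complex, stood at 2.09 ± 0.13 in the authors' deposited table (log2 scale ± SE), with a mean of 1258 normalized counts. *mat-1*, the core subunit known as CDC27 or APC3, was lower at 1.41 ± 0.13 with a mean in the authors' deposited table of 1277 normalized counts. Their 95% intervals, 1.85 to 2.34 and 1.16 to 1.66 from the SE in the authors' deposited table, do not overlap, and both genes passed the test against 2-fold under both adjustments. The other activator gene, *fzy-1*, and the subunit genes *mat-3*, *emb-27*, *emb-30* and *apc-2* were not listed.

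Of the enzymes upstream of the ligases, 1 E1 and 1 E2 gene were listed. The prefixes *uba* and *ubc* do not limit these classes to enzymes of ubiquitin itself, so some may serve its relatives. *uba-1*, the E1 that charges ubiquitin, passed the test against 2-fold under both adjustments at 1.39 ± 0.12 (log2 fold ± SE), with a mean in the authors' deposited table of 3682 normalized counts, and *uba-2* and *uba-5* were not listed. Of 21 *ubc* genes 1 was listed, or 4.76%, where the background over coding genes of the reference was 10.6%. That gene, *ubc-15*, had the highest fold of all 24, at 3.49 ± 0.27 in the authors' deposited table (log2 scale ± SE), or 11.2-fold. It passed the one-sided Wald test against 2-fold (Benjamini-Hochberg adjusted p = 8.77e-20), but its mean in the authors' deposited table, 104.4 normalized counts, is the lowest of the 24. Its interval of 2.96 to 4.01 overlaps those of *ubr-5*, *rpm-1* and *eel-1* (95%, from the SE in the authors' deposited table), so the order of these 4 is not settled. *ubc-15* lies on chromosome II from 2901401 to 2913605 (WBcel235), a span of 12205 bp, and overlaps no other annotated gene. The 20 unlisted *ubc* genes have a median span of 2049 bp.

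**Figure D2:**
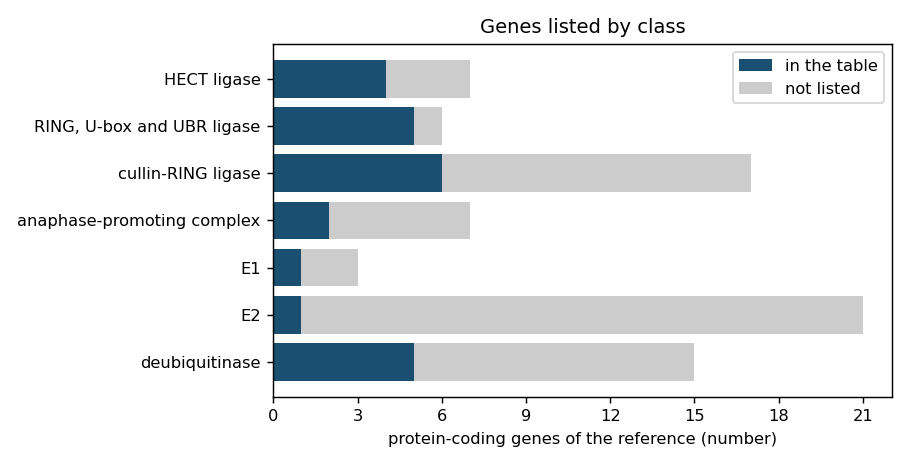
Number of protein-coding genes of the reference in each class, split into those in the authors' deposited table (dark) and those not listed (light). RING, U-box and UBR ligases had 5 of 6 genes listed and E2 enzymes 1 of 21, but 4 of those 6 genes were named singly with results known, while the E2 genes come from a prefix, so the shares are not like quantities.

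Deubiquitinases formed a narrow band of modest folds. In the authors' deposited table the 5 listed genes of 15 lay between 1.36 and 1.83 (log2 fold change), with a median of 1.71, and none reached 4-fold. *cyld-1*, the worm CYLD, was highest at 1.83 ± 0.17, followed by *math-33*, the homologue of USP7, at 1.74 ± 0.16 in the authors' deposited table (log2 scale ± SE). *usp-48* was lower at 1.55 but had the smallest SE of the 24 in the authors' deposited table, 0.073, and passed the one-sided Wald test against 2-fold (Benjamini-Hochberg adjusted p = 1.65e-13). *cyld-1* and *math-33* passed as well, and the 95% intervals of these 3 genes, from the SE in the authors' deposited table, overlap. *usp-46*, known in worms for removing ubiquitin from a glutamate receptor, had a value of 1.71 ± 0.56 with a mean in the authors' deposited table of 154.0 normalized counts. Its interval of 0.61 to 2.82 is wider than the range of values in the class, and it did not pass the one-sided Wald test against 2-fold (Benjamini-Hochberg adjusted p = 0.124). *otub-2*, of the OTU family, stood at 1.36 ± 0.15 in the authors' deposited table and also did not pass (Benjamini-Hochberg adjusted p = 0.0107, one-sided Wald test). Not listed were *usp-3*, *usp-4*, *usp-5*, *usp-14*, *usp-33*, *usp-39*, *usp-50*, *otub-1*, *otub-3* and *otub-4*.

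Set side by side, ligases and their subunits had a median log2 fold of 1.81 over 17 genes, deubiquitinases 1.71 over 5, and the lone conjugating enzyme 3.49 in the authors' deposited table. The split was wider within the ligases. HECT, RING, U-box and UBR ligases had a median log2 fold of 2.27 over 9 genes in the authors' deposited table. Subunits of multi-subunit ligases, here the cullin-RING and anaphase-promoting complex classes, had 1.49 over 8 in the authors' deposited table (log2 scale). Under both adjustments of the one-sided Wald test against 2-fold 7 of the 9 passed, while of the 8 subunits 5 passed with adjustment over all rows and 3 with adjustment over all tested genes. The background over coding rows with a mean of at least 100 was 62.0% and 53.5%. Beside it the 8 subunits gave 62.5% and 37.5%, at the background with the first adjustment and below it with the second. The 9 gave 77.8% with each. At or above 4-fold were 6 of the 9 and 2 of the 8, and 0 of the 5 deubiquitinases, beside 38.3% of those coding rows. Genes of a class are not replicates, so these differences were not tested. Most genes on both sides of the ligase split were named singly with results of these data known, so the split is a description. Both sides also differed in gene span, with a median of 10672 bp for the 9 and 3756.5 bp for the 8 subunits. Their median means were 1788 and 1119 normalized counts. The part of span and counts in the split was not tested. *ufd-1*, a cofactor of the CDC-48 unfoldase that belongs to none of these classes, was not listed.

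Shares listed also differed between families. Against a background of 10.6% of coding genes, 33.3% of 6 *cul* genes and 22.2% of 9 *usp* genes were listed. For *otub* it was 25.0% of 4 genes, for *uba* 33.3% of 3 and for *ubr* 100% of 3. Of the genes named singly 14 of 31 were listed, but those names were put together with results of these data known, so that share carries no weight. Because being listed is how the 24 genes were found, the shares are descriptions. The background also holds genes that adults do not express.

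Gene span, which the choice of genes did not use, ran along with these patterns. Among genes found by prefix alone, 4 of 5 spanning 10 kb or more were listed, with *usp-39* as the exception, where all coding genes of that span gave 54.1%. For spans of 5 to 10 kb it was 2 of 10 genes, beside 30.7% of coding genes, and under 5 kb 4 of 31, beside 5.49%. The singly named genes gave 5 of 5, 3 of 7 and 6 of 19 in the same order, shares that the choice of names fixes in part. The prefixes too were chosen with results known, so these counts are descriptions. Listed genes had a median span of 5517 bp and unlisted ones 3073 bp. In the authors' deposited table the 9 listed genes of 10 kb or more had a median log2 fold change of 2.60, against 1.99 for the 434 coding rows of that span with a mean of at least 100. For the 10 genes under 5 kb that median was 1.63, against 1.56 for 634 such rows of the authors' deposited table. The 5 genes between these limits had a lower median than the rows of that span, 1.48 against 1.79 for 534 rows in the authors' deposited table.

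Within the 24, span described the fold only loosely. Spearman's rho between span and log2 fold change was 0.28 and Pearson's r with log10 span 0.38, across 24 genes that share the same libraries. Without *ubc-15* they were 0.24 and 0.35. Over all 1602 coding rows with a mean of at least 100 rho was 0.18, and r was -0.32, with histone genes of very short span and high fold in that set. Exceptions stood at both ends: *zyg-11*, with a span of 3106 bp, had the sixth highest fold, and *herc-1*, with the longest span, had the second lowest. The reference gives spans with introns and not transcript lengths. The part of transcript length in the folds was not tested.

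**Figure D3:**
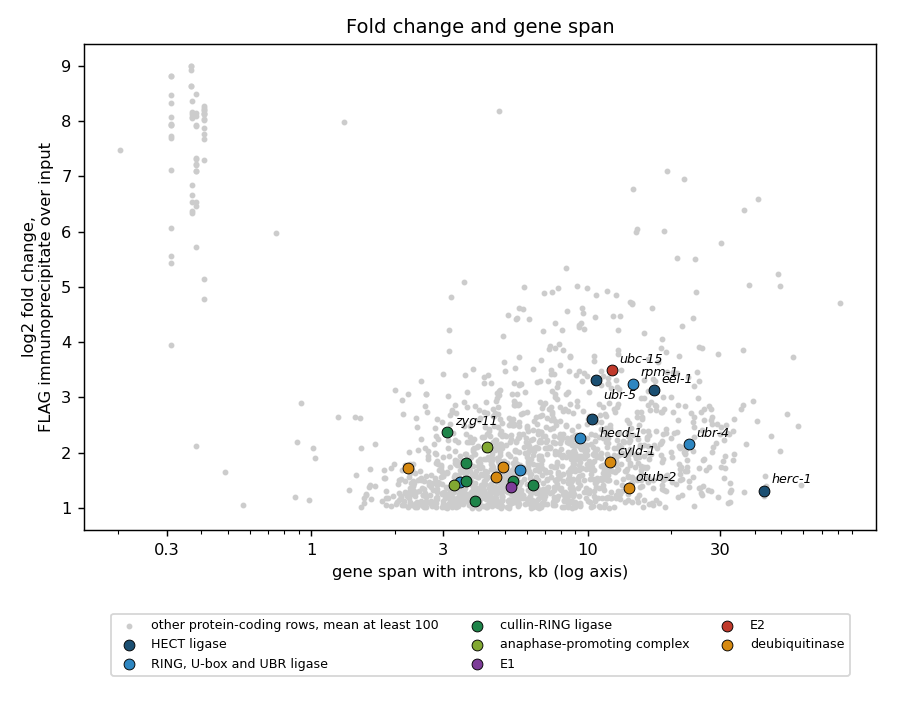
Log2 fold change of FLAG immunoprecipitate over input against gene span in kb (log axis), for the 24 genes in colour and other coding rows with a mean of at least 100 in grey. The 9 genes of 10 kb or more lie between 1.31 (*herc-1*) and 3.49 (*ubc-15*), and the grey points at the top left, under 1 kb, are mostly histone genes.

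The 24 genes were spread over all 6 chromosomes, with 7 on I, 4 each on II, III, IV and V, and 1, *sli-1*, on X. The X chromosome thus held 4.17% of them and 16.8% of all coding rows, and 6 of the 77 genes of the reference. Of the 24 genes, 11 overlap another annotated coding gene, in 10 cases by 79 bp or less, with *herc-1* as the exception. None of those overlapping coding genes was listed, and whether reads were counted by strand is not known.

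Other genes of the ubiquitin pathway were taken from a list made from general knowledge of the worm, with 91 names found in the reference or the table. Of these 12 were listed, or 13.2%, near the background of 10.6% of coding genes. The one-sided Wald test against 2-fold was passed by 6 of the 12 with adjustment over all rows, where 63.8% of all rows passed, and by 5 with adjustment over all tested genes, where 49.4% did. The highest gene with a reference entry was *ncl-1*, a TRIM-NHL protein gene that restrains nucleolar size, at 3.89 ± 0.27 in the authors' deposited table (log2 scale ± SE). *nhl-2*, a related gene of germ granules and P bodies, stood at 3.52 ± 0.33 in the authors' deposited table. Neither is set apart from *ubc-15*, the highest of the 24, since their errors overlap. A gene that the file names *apc-17*, without an entry under that name in the reference, stood at 6.08 ± 0.57 in the authors' deposited table.

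Partners of the cullin-RING ligases were found in that list too. *dcaf-1*, a receptor of CUL-4 ligases that binds through DDB-1, stood at 2.00 ± 0.11 and *cand-1*, which exchanges cullin adaptors, at 1.80 ± 0.16 in the authors' deposited table (log2 scale ± SE). *prom-1*, an F-box gene of meiotic chromosome pairing, was at 1.40 ± 0.15 in the authors' deposited table and passed only with adjustment over all rows. The remaining listed genes of that list did not pass, and they are not all cullin partners. They were *cdc-48.1* at 1.38, *gei-17* at 1.31, *nhl-1* at 1.27, *duo-3* at 1.19, *ula-1* at 1.11 and *ufd-3* at 1.04 (log2 fold, the authors' deposited table). None of the 6 genes for ubiquitin and its relatives was listed, and none of the 4 other E2 and E2-variant genes, *let-70* among them.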

How the data were processed

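The labels place 10 samples in 2 groups, 5 FLAG immunoprecipitates and 5 inputs. Tools named in the submitters' processing notes are DESeq2 1.12.3, STAR 2.5.2b-0, Bowtie2 2.3.0 and Trim Galore, without their roles. How reads were counted, and with which strand setting, is not given in the sources used, nor whether fold changes were shrunken. Per the file headers, the deposited table gives a mean signal over libraries (baseMean, in normalized counts), the log2 fold change with its SE, a test score, a p-value and an adjusted p-value. Each deposited p-value equals the normal upper tail of its score, for all 2725 genes with a p above 0 (relative tolerance 1e-06), so the test is one-sided. The number of tested genes, 20328, was recovered from the smallest p above 0, and 96.2% of the implied ranks are whole to 0.0001.

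Computed here with Python 3.11.15 and SciPy 1.17.1 were the one-sided Wald test against 2-fold (log2 fold change minus 1, over the SE), its Benjamini-Hochberg adjustment over 2732 rows at 0.01, 95% intervals, and class medians. The test was checked on simulated data. Simulated rows were not selected for a fold above 2, unlike the deposited rows, so the check cannot show how the test behaves on selected rows. Names were matched to the WBcel235 reference by symbol (2493) or locus tag (167), and 72 stayed unmatched. All 24 genes matched. The genes, classes and lists were chosen with earlier results of these data known. All listed members are named, by rule. Sequences were not used here.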

Additional observations from a re-analysis of the deposited data

How the results depend on the processing

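The deposited table bounds every result: it holds no values per sample, so no replicate could be left out and no library's depth or weight is known. No paired analysis was possible because the deposited table holds no values per sample. Of the 24 genes, 17 passed the test against 2-fold. The number was 22 at a threshold of 0.05 (75.6% of all rows), 23 against 1.5-fold (89.5%), 12 with Holm adjustment (31.8%), 15 with adjustment over all genes the authors tested (49.4%) and 17 among rows with a mean of at least 100 (62.1%). Against 4-fold 6 passed, a stricter question by construction, where 21.6% of all rows did; these were *ubc-15*, *ubr-5*, *rpm-1*, *eel-1*, *hecd-1* and *ubr-1*. The HECT median of 2.87 became 2.48 as a mean weighted by 1/SE squared, which gives *hecd-1* the most weight through its small SE. Counting only genes past the test against 2-fold, the share listed was 0% for *cul*, 11.1% for *usp* and 0% for *otub*. The background counted the same way was 1219 of the 19983 coding genes of the reference. With 6 *cul*, 9 *usp* and 4 *otub* genes, these shares cannot be told apart from that background. The other class medians moved by less than the median SE of the class under the weighted mean. The other family shares moved by less than 1.5 times when only genes past the test were counted. A minimum mean of 100 and the removal of *skr-1* and *skr-2* could change no class median, and that minimum no share, since no listed gene is below it and neither copy is listed.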
